A study of Rattus norvegicus with 13 samples.

Results

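The genes described here encode the subunits of oxidative phosphorylation, grouped by complexes I to V. They were taken from the array's probe annotation by symbol, as the Nduf, Sdh, Uqcr, Cox and Atp5 families of subunits, with 1 probe per gene. This gave 61 genes of the 13337 named on the array, of which 29 belong to complex I, 4 to complex II, 4 to complex III, 11 to complex IV and 13 to complex V, and 60 of the 61 were bright enough to be tested.

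The tissue was SN/VTA, that is, substantia nigra with ventral tegmental area. Its RNA, from male Sprague-Dawley rats, 8 weeks old and weighing 330 to 370 g, was hybridized to Illumina RatRef-12 arrays, which carry 22523 probes. The design crossed a pretreatment with a challenge, to ask how methamphetamine (METH) given beforehand alters the midbrain response to a toxic METH dose. MM rats received METH in both phases, MS rats METH and then saline, SM rats saline and then METH, and SS rats saline in both. METH pretreatment ran over 3 weeks in single doses of 0.5 to 2.5 mg/kg. The challenge was 8 injections at intervals of 1 h, each of 5 mg/kg METH or of saline, and was labelled as given 72 h after the pretreatment, although the printed schedule places less time between them. All rats were killed 24 h afterwards, so every value is a level at 1 late time point. The arrays used here were 3 of MM, 4 of MS, 3 of SM and 3 of SS, each taken as a separate animal, and p-values measure the spread between these arrays. The amplification protocol speaks of striatal samples, while the labels and the study's account give SN/VTA, which is followed here.

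Oxidative phosphorylation is the last stage of respiration in the inner mitochondrial membrane. Complex I takes electrons from NADH and complex II takes them from succinate, complex III passes them to cytochrome c, and complex IV hands them to oxygen, while complexes I, III and IV pump protons and complex V uses the returning protons to make ATP. Dopamine neurons of the nigra are known for a high demand on this pathway and for their sensitivity to inhibitors of complex I. Only subunits coded in the nucleus are considered, since the probe rule takes no gene of mitochondrial DNA.

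Promoters of such genes often hold sites for nuclear respiratory factor 1 (NRF1) and for ETS factors such as GABP. The letters GCGCATGC, part of the NRF1 palindrome, and CCGGAAGT, an ETS core, were searched on both strands of the 300 bases around each start site (RefSeq, GRCr8). Of the 61 genes, 53 had an entry. GCGCATGC or its reverse complement was found in 9 of the 53, against 2.47% of all 33469 promoters. CCGGAAGT was found in 6 of the 53 (11.3%), against 3.81% of all promoters. The promoters of the subunit genes were richer in G and C, at a median of 57.3% against 51.7% for all. Of the 10 subunit genes with the smallest p in SM against SS, 4 held a motif, beside 15 of all 53 with an entry. The 120 bases before the start sites of these 4 are shown because these genes come first in the comparisons below. Capitals mark the motif on either strand. In Atp5mc2 and Atp5me the motif and its reverse complement overlap in 1 stretch.
Ndufb7 (chr19:41477292-41477411, minus strand): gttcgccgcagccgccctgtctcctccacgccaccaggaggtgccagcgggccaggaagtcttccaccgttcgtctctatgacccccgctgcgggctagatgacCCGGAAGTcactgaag
Cox8a (chr1:213833624-213833743, minus strand): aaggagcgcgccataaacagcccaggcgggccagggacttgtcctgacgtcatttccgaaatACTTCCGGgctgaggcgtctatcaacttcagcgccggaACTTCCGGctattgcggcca
Atp5mc2 (chr7:135678219-135678338, minus strand): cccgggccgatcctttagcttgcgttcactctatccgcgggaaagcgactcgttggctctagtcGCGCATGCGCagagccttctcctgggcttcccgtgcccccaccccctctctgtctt
Atp5me (chr14:1464740-1464859, plus strand): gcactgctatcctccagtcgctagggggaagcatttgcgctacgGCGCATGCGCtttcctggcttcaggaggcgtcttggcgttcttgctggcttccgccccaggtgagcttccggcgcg
A motif in these windows describes the sequence and says nothing of whether a factor was bound in these animals.

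Levels are given in scaled signal units, which were recovered from the deposited ratios and are comparable between arrays for 1 probe but not between probes. Most subunit genes were bright and steady. The signal was at least 500 units on every array for 51 of the 61 genes, and for 49 of those 51 the brightest array was under 1.5 times the dimmest. Atp5f1b, the catalytic beta subunit of ATP synthase, was the steadiest, between 18416 and 21082 units over the 13 arrays, a ratio of 1.14. By contrast Th, the rate-limiting enzyme of dopamine synthesis, ranged from 211 to 2675 units over the same arrays, with overlap between all groups. In such bulk tissue fewer cells of a type and less RNA per cell cannot be told apart. The scaling medians of the arrays lay between 0.770 and 0.952, and 26.6 to 30.5% of the values of each array were at the lower limit of the file.

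None of the 60 tested subunit genes met the study's criterion of a 1.7-fold difference at an unadjusted p under 0.05 in any comparison. The study itself lists a complex IV subunit gene, Cox6c1, as higher in MM against MS at that criterion. Cox6c1 is not among the 61 genes taken here by symbol, and Cox6c, which is, has a different accession. In MS against SS it was met by 0 of 60, against 1.13% of the 17140 tested probes. In SM against SS it was met by 0 of 60, against 1.62% of all probes. In MM against MS it was met by 0 of 60, against 1.32% of all, and in MM against SM by 0 of 60, against 1.55% of all. Among probes above the lower limit on all arrays the shares were 0.574%, 1.08%, 0.777% and 0.944%, in the same order. At such shares 60 genes would hold few calls or none, so a count of 0 says little by itself. At p under 0.05 without the fold, limma called 0 genes in MS against SS, where it called 2.62% of all probes. It called 1 in SM against SS (4.36%), 0 in MM against MS (4.39%) and 0 in MM against SM (3.47%). The smallest adjusted p of any subunit gene was 0.999, in MM against MS, and it was 1 in the other comparisons. The intervals were narrow enough to bound the differences. The 95% interval of the log2 difference lay within 1.7-fold in either direction for 56 of 60 genes in MS against SS. In the other comparisons this held for 58 in SM against SS, 57 in MM against MS and 56 in MM against SM. The genes outside this bound were Cox6a2, Cox8b, Cox8c and Ndufa10l1, of which the first 3 are dim.

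**Figure D1:**
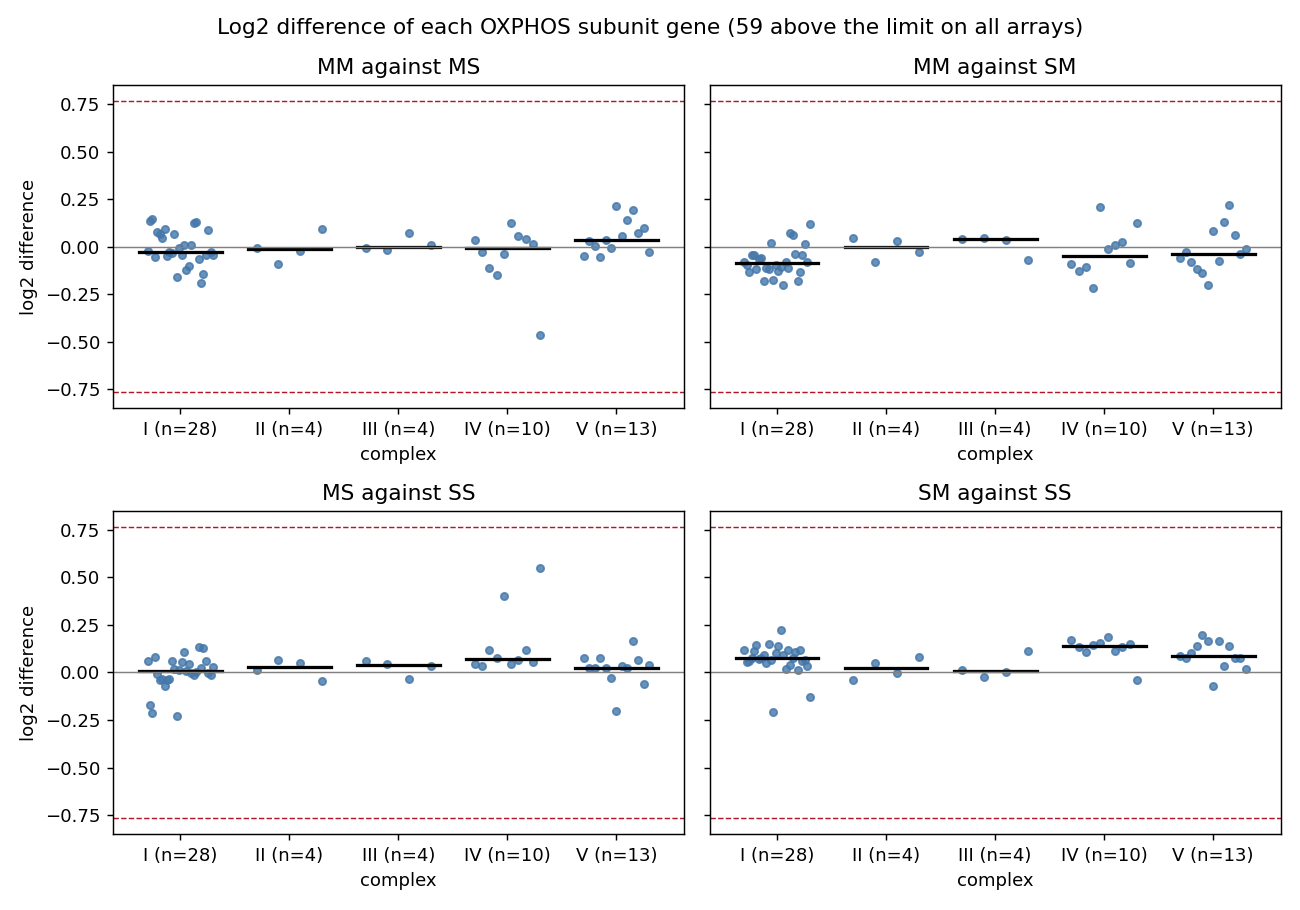
Log2 difference of each of the 59 subunit genes above the file's lower limit on all arrays (points), by complex, in 4 comparisons; black bars are medians over these 59 and dashed red lines mark 1.7-fold. No point reaches a dashed line, and in SM against SS most points lie above 0.

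The largest shift of the whole set was in SM against SS, the toxic challenge after saline pretreatment. The median log2 difference was 0.08 over the 60 subunit genes and 0.01 over all tested probes, and 52 of the 60 were higher in SM, against 51.8% of all probes. The shift was small, since no gene differed by as much as 1.2-fold and 13 differed by at least 1.1-fold. Complex IV had a median of 0.13 (9 of 11 higher), complex V 0.09 (12 of 13 higher) and complex I 0.08 (26 of 28 higher). Complex II had a median of 0.03 (2 of 4 higher) and complex III of 0.01 (3 of 4 higher). Differences between complexes were not tested, and complexes II and III rest on 4 genes each.

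The shift differed between animals. The median over the 60 genes, as log2 relative to the mean of the 13 arrays, was 0.03, 0.03 and 0.12 in SM replicates 1, 3 and 4, against -0.01, -0.06 and -0.02 in SS replicates 2, 3 and 4. All SM arrays were above all SS arrays, and SM replicate 4 was the highest of the 13. Without SM replicate 4 the median difference of SM against SS was 0.05, and 40 of the 60 genes were higher.

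**Figure D2:**
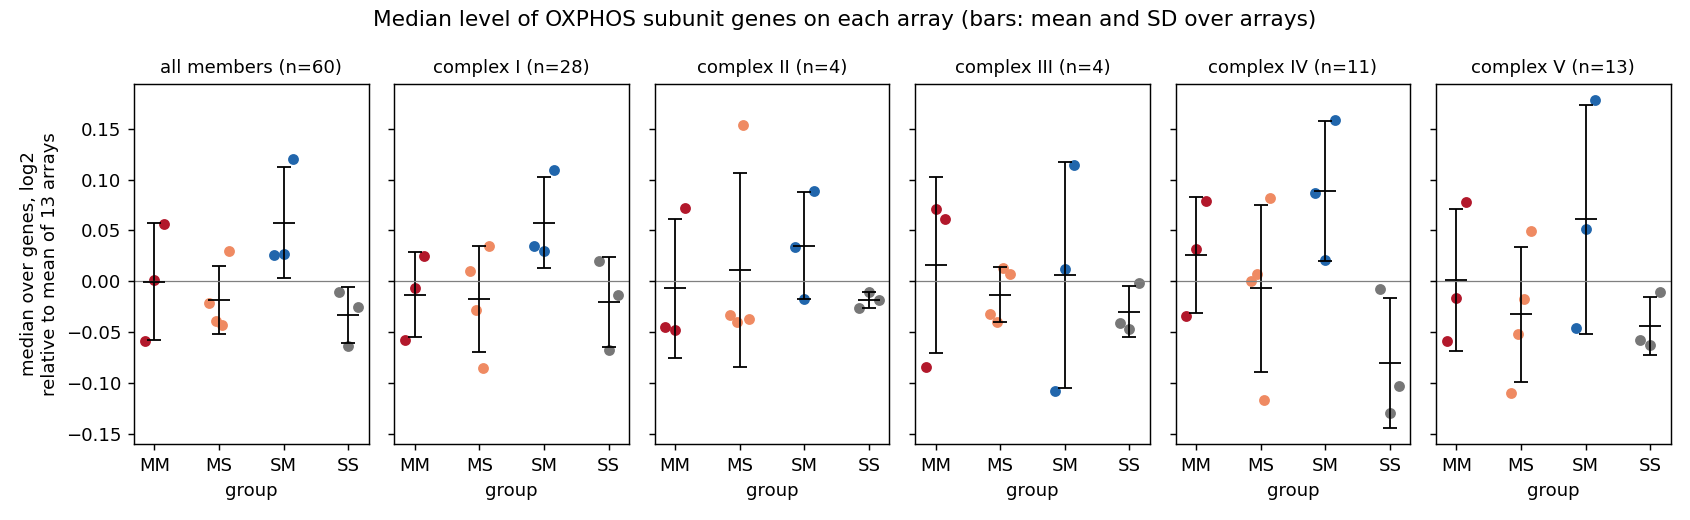
Median level of the subunit genes on each array (points), as log2 relative to the mean of the 13 arrays, for all 60 tested genes and by complex; groups run MM, MS, SM, SS, and bars give the mean and SD over arrays. SM replicate 4, at 0.12 over all genes, is the highest array, and SM lies above SS without overlap over all genes and in complexes I and IV.

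Bright probes of all kinds also had medians above 0. Among the 459 probes averaging 5000 units or more, the median of SM against SS was 0.06 and 71.0% were higher in SM. The 36 subunit genes among them had a median of 0.10. At 1000 to 5000 units the median was 0.08 for 14 subunit genes and 0.04 for all 1939 probes. At 100 to 1000 units it was 0.11 for only 4 subunit genes and 0.02 for all 5116 probes, and below 100 units it was -0.04 both for 5 subunit genes and for all 6780 probes. The median of all probes was thus higher in each brighter class, while that of the subunit genes had no such order above 100 units.

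**Figure D3:**
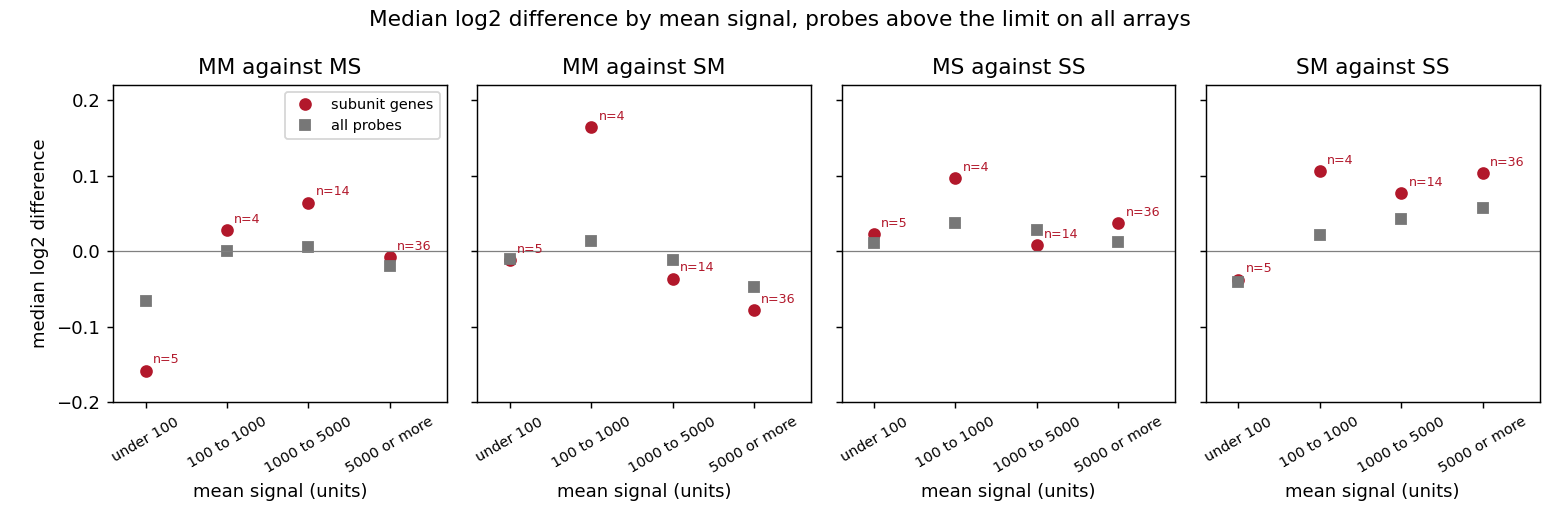
Median log2 difference in 4 comparisons by mean signal in units, for subunit genes (red circles, with their number) and for all probes above the lower limit on all arrays (grey squares). In SM against SS the series of all probes is higher at each brighter class, up to 0.06 at 5000 units or more, while the subunit genes lie between 0.08 and 0.11 in the 3 classes above 100 units.

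Ndufb7, an accessory subunit of complex I, was the only subunit gene past p 0.05. Its signal was 6306, 5817 and 6931 units in SM replicates 1, 3 and 4, against 5503, 5304 and 5467 units in SS replicates 2, 3 and 4. All SM arrays were above all SS arrays, and the difference was 0.22 on the log2 scale (SE 0.09, limma adjusted p = 1). This call rested on the full set of arrays. It was lost without SM replicate 1 (0.23), without SM replicate 4 (0.16) and without SS replicate 2 (0.23), 3 (0.21) or 4 (0.23), and of these 6 arrays only SM replicate 3 could be left out without losing it (0.29). It was also lost with the values as deposited (0.28) and with the 2 groups fitted alone (0.22).

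In complex IV, Cox4i1, the main form of a subunit that binds ATP, had 14684, 13778 and 15118 units in SM, against 13476, 12385 and 12848 units in SS, a difference of 0.17 (SE 0.10). Cox8a, the common form of a small membrane subunit, had 10015, 9384 and 9628 units in SM, against 8542, 9094 and 8491 units in SS, a difference of 0.15 (SE 0.10). Cox5a, a subunit on the matrix side, had 9341, 8425 and 8650 units in SM, against 8137, 7958 and 7972 units in SS, a difference of 0.13 (SE 0.09). In these 3 genes the groups did not overlap and none passed the test, with adjusted p = 1 in limma.

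In complex V, the genes with the smallest p were membrane subunits. Atp5mc1, 1 of the genes for the c subunit of the rotor ring, averaged 10695 ± 1431 units in SM and 9287 ± 671 units in SS (SD, n = 3 each), a difference of 0.20 (SE 0.12). Atp5mc2, another gene for that subunit, averaged 5993 ± 252 units in SM and 5357 ± 484 units in SS (SD, n = 3 each), a difference of 0.16 (SE 0.11). Atp5me, the e subunit at the dimer interface, averaged 16077 ± 1518 units in SM and 14278 ± 123 units in SS (SD, n = 3 each), a difference of 0.17 (SE 0.11). In all 3 genes SM overlapped SS. Without SM replicate 1 the differences of Atp5mc1 and Atp5me were 0.31 and 0.25, and both were then past p 0.05 (limma adjusted p = 0.840 and 0.878).

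In complex I, the accessory subunits Ndufb2, Ndufb6 and Ndufa5 followed Ndufb7 in order of p. Their differences in SM against SS were 0.15 (SE 0.10), 0.14 (SE 0.10) and 0.14 (SE 0.11). Over all subunit genes, every SM array was above every SS array in 8 of 60 (Atp5f1b, Cox4i1, Cox5a, Cox8a, Ndufa5, Ndufb2, Ndufb7 and Sdhd), against 5.32% of all tested probes. The reverse held for 1 gene, the dim Ndufb4, against 4.6% of all.

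**Figure D4:**
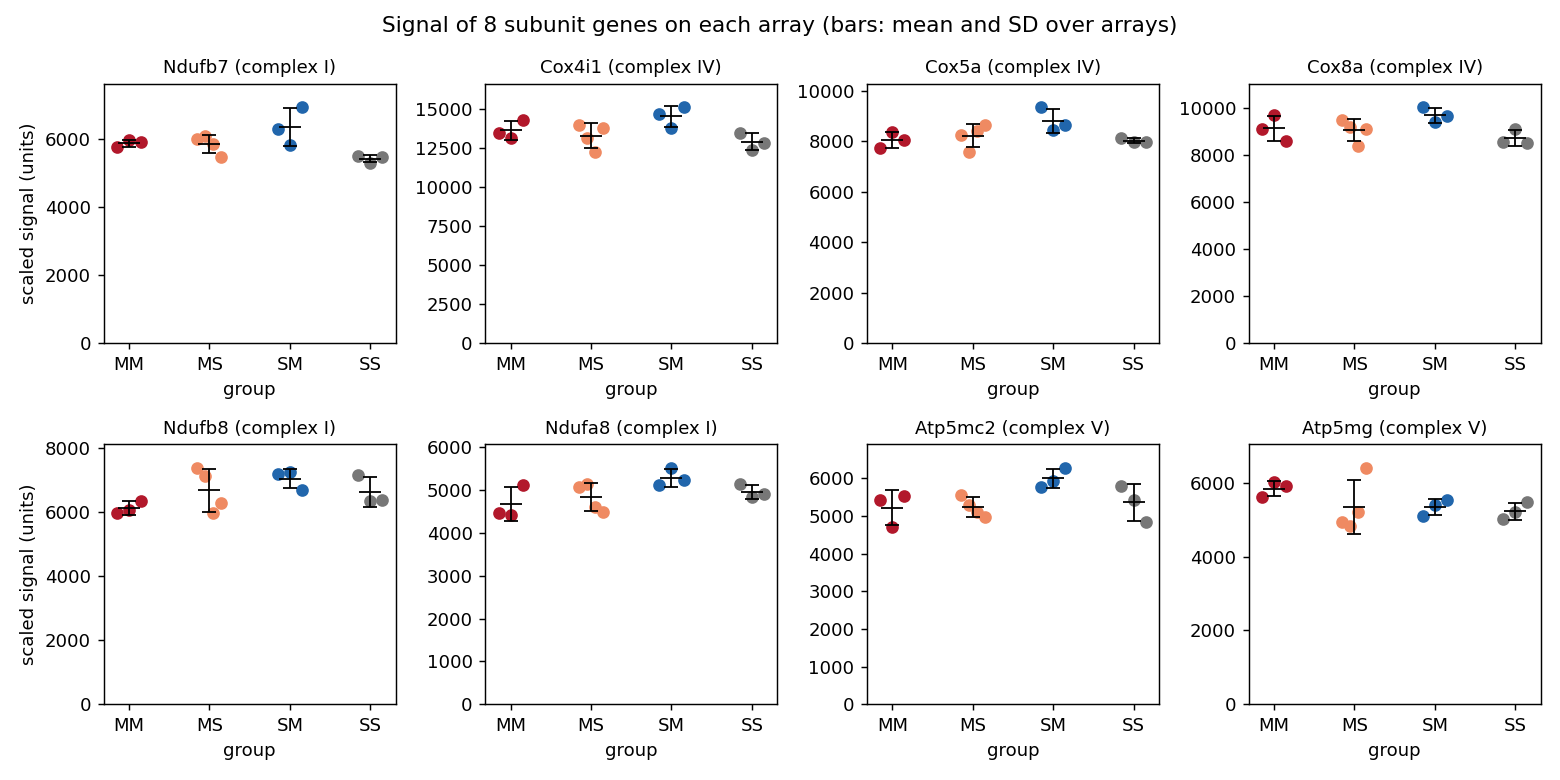
Scaled signal in units on each array (points) of 8 subunit genes, with groups in the order MM, MS, SM, SS and bars for the mean and SD over arrays; axes start at 0. SM lies above SS without overlap in Ndufb7, Cox4i1, Cox5a and Cox8a, and MM lies below SM without overlap in Cox5a, Ndufb8 and Atp5mc2.

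The subunits that carry out electron transfer and catalysis are given by role, not by p. In SM against SS, the difference was 0.04 for Ndufs1, 0.08 for Ndufs3, 0.12 for Ndufs7, 0.06 for Ndufs8, 0.07 for Ndufv1 and 0.04 for Ndufv2, which belong to the arms of complex I that take up NADH and pass electrons to ubiquinone. In complex II, it was -0.04 for Sdha, the flavin subunit, 0.05 for Sdhb, the iron-sulphur subunit, 0.00 for Sdhc and 0.08 for Sdhd, which anchor the complex in the membrane. In complex III, it was -0.02 for Uqcrc1, a core protein, and 0.00 for Uqcrfs1, the Rieske iron-sulphur protein. In the head of complex V, it was 0.09 for Atp5f1a, 0.08 for Atp5f1b and 0.10 for Atp5f1c. Every one of these was under 1.1-fold, and the smallest unadjusted p among them was 0.335.

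Other measurements moved in the same comparison. The beta globin probe Hbb, a marker of blood, averaged 11918 ± 1184 units in SM and 21925 ± 2177 units in SS (SD, n = 3 each), a log2 difference of -0.88 (limma adjusted p = 0.498). Of 6 tested blood markers 5 were lower in SM and 3 met the criterion. Of 7 oligodendrocyte markers 5 were lower in SM with a median of -0.18, and 2, Mbp and Cldn11, had p under 0.05. Of 12 markers of meninges and choroid plexus 11 were lower in SM with a median of -0.31. Of these, Igf2 (-0.66), Col1a2 (-0.49) and Col1a1 (-1.07) had p under 0.05, and Col1a1, a dim probe, met the criterion. Of 8 dopamine neuron markers 6 were higher in SM with a median of 0.33, of 8 serotonin neuron markers 7 were higher with a median of 0.16, and of 12 markers of all neurons 8 were higher with a median of 0.03. Of 7 astrocyte markers 5 were higher (median 0.11), of 7 microglial markers 4 were higher (median 0.17) and of 4 endothelial markers 3 were lower (median -0.14). No neuronal, astrocyte, microglial or endothelial marker had p under 0.05. The mean log2 level over all 7 blood marker probes, tested or not and relative to the 13 arrays, was -0.10 to -0.04 in SM and 0.30 to 0.50 in SS, without overlap. That of the meningeal markers was -0.43 to 0.18 in SM and -0.08 to 0.87 in SS, and that of the dopamine neuron markers was -0.09 to 0.97 in SM and -0.69 to 0.61 in SS, so both overlapped. Markers also moved in MM against MS, where the median of the subunit genes was -0.00. Lower in MM were 12 of 12 meningeal (median -0.27), 6 of 7 oligodendrocyte (-0.17) and 6 of 6 blood markers (-0.30). There 8 of 8 serotonin neuron markers were higher (median 0.56), and 1, Tph2, met the criterion, while 4 of 8 dopamine neuron markers were higher (0.02). The part of the markers in the shift of the subunit genes was not tested.

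METH pretreatment alone gave a smaller shift. In MS against SS the median was 0.03 over the subunit genes and 0.02 over all tested probes, with 41 of 60 higher in MS, against 56.4% of all. The medians were 0.01 for complex I, 0.03 for complex II, 0.04 for complex III, 0.06 for complex IV and 0.02 for complex V. Every MS array was above every SS array in 2 of 60 genes, Ndufs5 and Sdhb, against 1.6% of all, and no gene showed the reverse (1.32% of all). Ndufs5, an accessory subunit of complex I, had 9183, 9796, 9557 and 10839 units in MS, against 9069, 8787 and 8977 units in SS, a difference of 0.14 (SE 0.09, limma adjusted p = 1).

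With the scaling used here, the median closest to 0 was that of the toxic challenge after METH pretreatment. In MM against MS it was -0.00 over the subunit genes and -0.01 over all tested probes, and 30 of 60 genes were higher in MM, against 47.3% of all. The medians of the complexes lay between -0.03 (complex I) and 0.04 (complex V). Which comparison had the median closest to 0 depended on the scaling. With quantile normalization the median over the subunit genes was 0.02 in MM against MS and 0.01 in MS against SS. With the values as deposited these medians were 0.08 and 0.01. In no gene did the arrays of MM and MS separate, against 1.97% of all probes above and 2.41% below. Among the genes with the smallest p, Atp5mg, the g subunit of complex V, had 5623, 6014 and 5904 units in MM, against 4927, 4824, 5222 and 6404 units in MS. MS replicate 4 was the highest of these arrays, so the groups overlapped, and the difference was 0.14 (SE 0.10, limma adjusted p = 0.999). It was 0.23 without MS replicate 4 and 0.22 with the values as deposited, and was then past p 0.05 (limma adjusted p = 0.949 and 0.972). Ndufs7, a subunit of complex I with an iron-sulphur cluster, had 3457, 3457 and 3545 units in MM, against 4403, 4120, 3235 and 3759 units in MS, a difference of -0.14 (SE 0.11). MS replicate 3 was the lowest of these 7 arrays, and without it the difference was -0.23 and past p 0.05 (limma adjusted p = 0.964).

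The 2 challenged groups were then compared. In MM against SM the median was -0.07 over the subunit genes and 0.00 over all tested probes, and 18 of 60 were higher in MM (42 lower), against 50.3% of all higher. These arrays share SM with the comparison of SM against SS, so the opposite signs are not separate evidence. The medians were -0.09 for complex I, 0.00 for complex II, 0.04 for complex III, -0.09 for complex IV and -0.04 for complex V. Bright probes of all kinds were mostly lower in MM too. Among all 459 probes of 5000 units or more the median was -0.05 and 33.1% were higher in MM, and the median was -0.08 for the 36 subunit genes among them. Without MM replicate 1 the median over the subunit genes was -0.02, and without SM replicate 4 it was -0.03.

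Ndufb8, an accessory subunit of complex I, had the smallest p in MM against SM. Its signal was 5961, 6058 and 6364 units in MM, against 7205, 7250 and 6703 units in SM, a difference of -0.20 (SE 0.10, limma adjusted p = 1). Atp5mc2 had 5425, 4699 and 5535 units in MM, against 5774, 5935 and 6269 units in SM, also a difference of -0.20 (SE 0.11). Neither gene overlapped between the groups. Ndufa8, an accessory subunit of complex I, averaged 4668 ± 398 units in MM and 5287 ± 206 units in SM (SD, n = 3 each), a difference of -0.18 (SE 0.10), and the groups overlapped. Cox6a1, the common form of a regulatory subunit of complex IV, had 23594, 19745 and 26750 units in MM, against 24912, 27162 and 28923 units in SM, a difference of -0.22 (SE 0.13). Without MM replicate 3 the differences of Ndufa8 and Cox6a1 were -0.25 and -0.32, and both were then past p 0.05 (limma adjusted p = 0.925 for each). Every MM array was below every SM array in 8 of 60 genes (Atp5mc2, Cox5a, Cox5b, Ndufb2, Ndufb5, Ndufb6, Ndufb8 and Ndufs7), against 4.65% of all, and above in 1, Atp5mg, against 4.42% of all.

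Whether the challenge acted differently after METH than after saline pretreatment was tested directly, as MM minus MS against SM minus SS. Of 60 subunit genes 0 met the criterion, against 1.66% of all probes, and 0 had p under 0.05, against 2.86% of all. The median of the subunit genes was -0.09 with 18 of 60 above 0, and that of all tested probes was -0.02 with 46.9% above 0. Bright probes of all kinds were also below 0. The 459 probes of 5000 units or more had a median of -0.06 with 33.1% above 0, and the 36 subunit genes among them had -0.11. Complex IV had a median of -0.14 with 10 of 11 genes negative, and complex I of -0.09 with 19 of 28 negative. The smallest p was that of Ndufb7, with a difference of -0.22 (SE 0.13, limma adjusted p = 1). Of the genes named here, Ndufs7 was past p 0.05 without MS replicate 3 (-0.35), and so was Cox6a1 without MM replicate 3 (-0.40). For 53 of 60 genes the interval of this difference lay within 1.7-fold.

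Ndufa10 and Ndufa10l1 varied more between animals than between groups. Ndufa10, an accessory subunit of complex I, lies on chromosome 9, and Ndufa10l1, named for its likeness to it, lies on chromosome 6. Whether the 2 probes bind each other's transcripts was not tested, so the levels of both are uncertain. Ndufa10 had 4215, 4727 and 3738 units in MM, 4701, 3284, 3585 and 3905 in MS, 4995, 3575 and 5069 in SM, and 4211, 3493 and 5482 in SS. Ndufa10l1 had 3804, 4790 and 3085 units in MM, 4499, 2938, 3098 and 3512 in MS, 5386, 2882 and 4750 in SM, and 4074, 2820 and 5650 in SS. The 7 arrays with the most Ndufa10 were also the 7 with the most Ndufa10l1, and each group held both high and low arrays. The SD within groups was 0.39 on the log2 scale for Ndufa10l1 and 0.25 for Ndufa10, larger than in 98.4% and 94.9% of the probes of 1000 to 5000 units, whose median SD was 0.13.

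**Figure D5:**
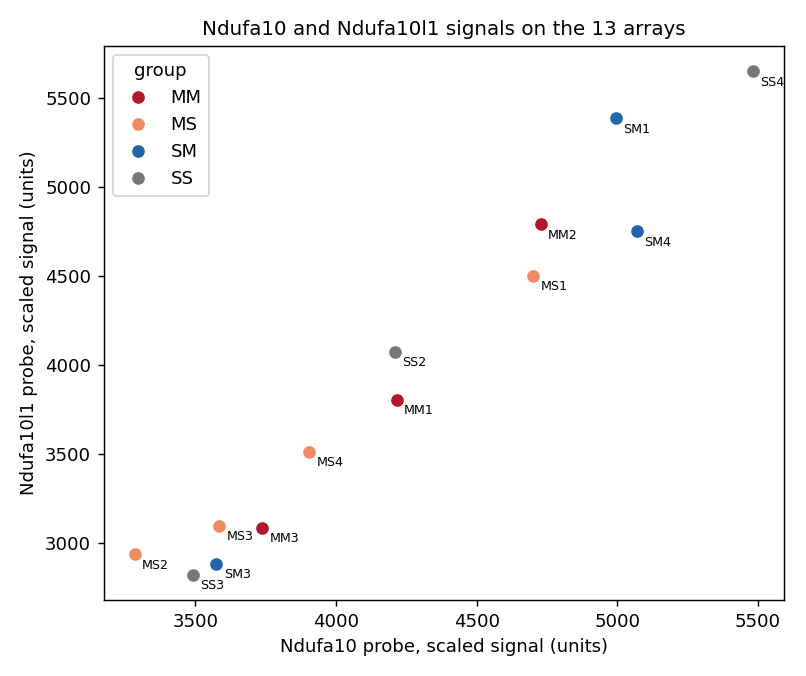
Scaled signal of the Ndufa10l1 probe (vertical axis, units) against that of the Ndufa10 probe (horizontal axis, units) on the 13 arrays, each labelled by group and replicate. The points run along 1 line from 2820 to 5650 units of Ndufa10l1 in SS alone, and all groups spread along it; the axes do not start at 0.

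The probes for forms of complex IV subunits known from heart and skeletal muscle or from testis were dim here. Units do not compare between probes, and some probes of other subunits, given below, were as dim, so this does not show low expression. Cox6a2, the muscle form of subunit VIa, had 150, 184 and 67.8 units in MM, 152, 114, 101 and 145 in MS, 120, 92.9 and 108 in SM, and 158, 61.6 and 89.3 in SS. Cox8b, the muscle form of subunit VIII, had 69.7, 74.9, 106 and 83.3 units in MS, against 78.9, 41.2 and 55.1 units in SS. MS replicates 3 and 4 were above all SS arrays and replicates 1 and 2 were not, and the difference was 0.55 (SE 0.29, limma adjusted p = 1). Without SS replicate 2 it was 0.79 and met the criterion (limma adjusted p = 1). In MM, Cox8b had 51.1, 51.1 and 82.0 units, overlapping MS, a difference of -0.46 against MS (SE 0.29, limma adjusted p = 0.999). Its p was the smallest of any subunit gene in MM against MS. Cox8c, the testis form, was at the lower limit on 6 of 13 arrays and reached 5.57 units at most, so no fold is given. Of 6 muscle markers, Ckm was at the limit on all 13 arrays, Mb on 9 and Actn3 on 2. The other 3 had signal on every array, with 301 to 430 units for Acta1, 296 to 840 units for Tnnc2 and 66.8 to 146 units for Myh7.

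A few other probes carried little signal. Ndufs4, an accessory subunit of complex I, was listed at 0.01 on 12 of 13 arrays and at 0.693 in MS replicate 3, and was not tested. Ndufb4 averaged 47.5 units over the 13 arrays, Ndufs6-ps1, a pseudogene by its symbol, 34.9 units, Atp5mc3, the remaining gene for the c subunit, 35.7 units, and Cox6c 91.8 units. Cox7a2l, which the rule places in complex IV, is known as a factor for the joining of complexes III and IV, and had 3629 to 4822 units.

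Other mitochondrial genes were read beside the share of all probes that met the criterion, 1.13% in MS against SS to 1.62% in SM against SS. At such shares a list of these sizes would hold few calls or none, so a count of 0 says little about it. Of 31 tested assembly factors 0 met the criterion in any of the 4 comparisons. Sdhaf2, which inserts the flavin of complex II, averaged 676 ± 178 units in MS (n = 4) and 878 ± 19.5 units in SS (n = 3), past p 0.05 in limma with adjusted p = 1. It averaged 957 ± 77.4 units in MM (n = 3), also past p 0.05 against MS with limma adjusted p = 0.999. The MS values were 892, 456, 687 and 668 units, of which that of replicate 1 lay within the range of the MM arrays.

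Of 58 mitochondrial ribosomal proteins 0 met the criterion, and their median was 0.06 in SM against SS with 46 higher. Of 14 genes of the tricarboxylic acid cycle 0 met it, and the median was 0.09 with 10 higher in SM. Of 15 glycolytic genes 0 met it, and the median was 0.09 with 14 higher in SM, so that pathway outside the mitochondria had a shift of similar size. Of 10 carriers, porins and uncoupling proteins 0 met it, and the median was -0.03. Of 11 further subunits and electron-carrier genes 0 met it, and the median was 0.06. Each of these counts of 0 held in all 4 comparisons, and all medians, of SM against SS, stand beside 0.01 over all tested probes. The median of all probes was 0.04 at 1000 to 5000 units and 0.06 at 5000 units or more. In MS against SS, 11 of the 11 further subunits and electron-carrier genes were higher, with a median of 0.09, beside 0.02 over all tested probes. The other lists of this paragraph had medians of 0.03 to 0.04 in MS against SS. These lists were not compared with probes of like brightness.

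Among 17 regulators of mitochondrial biogenesis, 1 met the criterion in SM against SS, against 1.62% of all probes, and 0 in each of the other 3 comparisons. Gabpa, the ETS subunit of GABP, had 13.8, 9.84 and 26.2 units in SM, against 28.0, 29.3 and 25.3 units in SS, a difference of -0.85 (limma adjusted p = 1). The groups overlapped at SM replicate 4, and the probe is dim. Polg, the polymerase of mitochondrial DNA, averaged 194 ± 26.8 units in SM and 145 ± 20.7 units in SS (SD, n = 3 each), a difference of 0.43, past p 0.05 but under the fold of 1.7 (limma adjusted p = 1).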

How the data were processed

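Per the labels and the study's methods, the authors read Illumina signals with BeadStudio, and GeneSpring 7.3.1 served for a global normalization. The deposited value is a ratio of the scaled signal to the median of the probe over arrays, or to 10 units where that median was lower, with a lower limit of 0.01. Signals in units were recovered from the steps of these ratios for 17404 of 22523 probes and rescaled by array medians. For tests, ratios were divided by the array median, values at the limit were set to a floor at the 25th percentile (0.0120), and log2 values of the 17140 probes above it on at least 3 arrays were fitted with a mean per group by limma 3.58.1 under R 4.3.3, whose prior followed the mean signal (2.80 df, 9 residual df), and Benjamini-Hochberg adjustment. Intervals are 95% moderated t intervals. Arrays give no counts, so their number limits the precision. The steps were tested on simulated data.

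The members and lists were chosen with earlier results of these data known. Chosen for naming were genes past the criterion, the 10 with the smallest p in each comparison, catalytic and redox subunits, tissue isoforms, genes with values at the limit, and list genes past the criterion. Ndufb9, Ndufb11 and Cox7b, chosen by p, are not described above. Ndufa10, Ndufa10l1, Ndufb5, Ndufs6-ps1, Cox6c, Sdhaf2, Ndufaf1, Ndufaf3, Polg and the markers were named after their values were seen. All 61 symbols matched RefSeq by gene ID. Alternatives covered scaling, floor, filter, prior, groups in the fit, the replicate number as a block and leaving out single arrays.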

Additional observations from a re-analysis of the deposited data

Results flagged for a closer look

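Only MS has 4 arrays, so only there was each named gene and complex median examined for an array far from the rest, in 46 such groups, of which chance alone would mark about 1 in 20. Atp5mc1 in MS replicate 2 had 8720 units, against 9590 to 9744 units in the other MS arrays. Ndufs3 in MS replicate 4 had 3606 units, against 2841 to 2970 units in the others. Ndufv2 in MS replicate 4 had 7279 units, against 6011 to 6144 units in the others. Cox8c in MS replicate 2 had 1.28 units, while the other MS arrays were at the lower limit. With those arrays tied, any signal would have been marked, so the rate of about 1 in 20 does not hold for Cox8c. The median of complex II in MS replicate 3 was 0.15 on the log2 scale relative to the mean of the 13 arrays, against -0.03 to -0.04 in the other MS arrays. For no subunit gene did the challenge differ between pretreatments at an adjusted p under 0.05.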

How the results depend on the processing

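The count of subunit genes at the 1.7-fold criterion stayed 0 in every comparison under all the alternatives tried, except that it was 0 to 1 in MS against SS when single arrays were left out, with 1 (Cox8b) without SS replicate 2. Of the counts at p under 0.05, MS against SS gave 0 to 1 without single arrays. SM against SS gave 4 without a filter on dim probes, 0 with the values as deposited, 0 with the 2 groups fitted alone and 0 to 2 without single arrays, among them 0 without each SS array and without SM replicate 4. MM against MS gave 1 with the values as deposited and 0 to 1 without single arrays, and MM against SM gave 4 without a filter and 0 to 2 without single arrays. No adjusted p of a subunit gene fell under 0.05 in these settings, and the causes were not tested. The median over the subunit genes in the values as deposited was 0.14 in SM against SS, beside 0.07 over all probes above the limit. In MM against MS that median was 0.084, beside 0.07 over those probes. Leaving out single arrays gave medians of 0.01 to 0.04 in MS against SS and 0.05 to 0.11 in SM against SS, and of -0.02 to 0.02 in MM against MS and -0.09 to -0.02 in MM against SM. Each gene had 1 probe, so the choice of another probe could not be run. Leaving values at the limit as scaled, chosen after seeing the data, altered none of these counts.

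With the replicate block the counts at p under 0.05 were 1 in MS against SS and 2 in SM against SS, with 1 in MM against MS and 1 in MM against SM, and 0 at the criterion. The labels name nothing shared behind the replicate numbers, and the data were mixed: 6 of 15 same-numbered pairs had a correlation over 0.1, the median correlation was 0.076 for same-numbered and -0.039 for differently numbered pairs, and 7 of 13 arrays correlated best with their own number. How many arrays would correlate best with their own number by the layout alone was not worked out. The arrays were not treated as paired, since the labels give no ground for it, and whether same-numbered arrays share a factor was not settled. With the block the median over the subunit genes was 0.04 in MS against SS and 0.11 in SM against SS. It was 0.01 in MM against MS and -0.05 in MM against SM. Dim probes limit what can be seen: below 100 units the median SD within groups was 0.36 on the log2 scale, against 0.11 at 5000 units or more.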
